A study of Mus musculus with 8 samples.

Results

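Renal calcium reabsorption genes were examined in kidney RNA of diabetic mice that received recombinant FGF4 (rFGF4) or vehicle. The group was fixed by name and consists of 9 genes out of the 55401 listed in the deposited expression table: *Trpv5*, *Trpv6*, *Calb1*, *S100g*, *Slc8a1*, *Atp2b1*, *Atp2b4*, *Casr* and *Pth1r*. Each of the 9 names matched 1 row. The study's text calls the sequenced material renal tissue and describes RNA extraction from renal cortex. Polyadenylated RNA of kidney was sequenced in 8 libraries, each taken here as 1 mouse: 4 rFGF4-treated (numbered 1, 2, 3 and 5) and 4 vehicle-treated (2, 3, 4 and 5). The sample labels call the latter a *db*/*db* model and the former only rFGF4 treatment, and the design deposited with them places both groups in *db*/*db* mice, leptin receptor mutants that become obese and diabetic. The study's text instead places the sequenced kidneys in mice made diabetic with streptozotocin, a toxin of the insulin-producing cells, and which of the models was used cannot be read from the expression table. In either model the treated and the vehicle group were both mice of the diabetic model, and no kidney of a non-diabetic mouse was among these libraries. The study reports that rFGF4 lowered blood glucose in *db*/*db* mice but not in streptozotocin mice. Blood glucose may therefore differ between the groups if *db*/*db* mice were used. rFGF4 in this study is a structurally modified human FGF4 described as non-mitogenic, injected into the peritoneum every other day over several weeks, whereas controls received PBS. The sex, age, dose and duration for the sequenced mice are not given in the labels.

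Most filtered calcium returns to the blood between the cells of the proximal tubule and the thick ascending limb, and the final adjustment is made through the cells of the distal convoluted and connecting tubule. There, calcium enters through the apical channels TRPV5 and TRPV6, is carried across the cytosol by the calbindins (calbindin-D28k, encoded by *Calb1*, and calbindin-D9k, encoded by *S100g*), and leaves through the sodium-calcium exchanger NCX1 (*Slc8a1*) and plasma membrane calcium pumps (*Atp2b1* and *Atp2b4*). Parathyroid hormone, acting on its receptor (*Pth1r*), and the hormonal form of vitamin D raise calcium reabsorption, whereas the calcium-sensing receptor (*Casr*) lowers it when blood calcium is high. *Trpv5*, *Trpv6*, *Calb1* and *S100g* are known as genes that respond to vitamin D.

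The sequence just upstream of the transcription start is shown for *S100g*, the member with the highest level, and for the 2 channel genes, because these 3 vitamin D-responsive genes differed in how they varied between mice. *Trpv5* and *Trpv6* are neighbours on the minus strand of chromosome 6, with 15767 bases between the genes. The sequences are from RefSeq on GRCm38.p6, are written 5′ to 3′ on the strand of the gene and end at the base before the start. For *Trpv5* the start lies earlier in GENCODE, and the 46 bases inside that gene are left out, so that 204 are shown. Capitals mark hexamers of the nuclear receptor type, searched on both strands as AGGTCA in its common form, with its variant GGGTCA at the first base, the variant AGTTCA at the third and the form GGTTCA with both changes.
S100g promoter, chrX:162964600-162964849: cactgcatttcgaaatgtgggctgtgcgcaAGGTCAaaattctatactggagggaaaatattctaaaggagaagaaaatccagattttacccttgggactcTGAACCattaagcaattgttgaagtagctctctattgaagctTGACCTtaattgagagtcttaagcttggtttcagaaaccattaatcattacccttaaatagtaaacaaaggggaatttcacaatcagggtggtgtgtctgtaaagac
Trpv6 promoter, chr6:41636406-41636655: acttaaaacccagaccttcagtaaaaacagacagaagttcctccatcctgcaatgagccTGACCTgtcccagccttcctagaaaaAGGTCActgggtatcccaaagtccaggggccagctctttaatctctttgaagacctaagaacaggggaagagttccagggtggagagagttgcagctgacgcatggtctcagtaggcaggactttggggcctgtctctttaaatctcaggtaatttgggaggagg
Trpv5 promoter, chr6:41680770-41680973: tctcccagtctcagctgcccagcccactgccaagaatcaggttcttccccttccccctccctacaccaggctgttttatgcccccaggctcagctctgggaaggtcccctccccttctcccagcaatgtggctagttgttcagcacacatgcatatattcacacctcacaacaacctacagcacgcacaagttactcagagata
The *S100g* window held 3 such hexamers, the *Trpv6* window 2, and the *Trpv5* window 0, also when read to its full 250 bases. At least 1 of the hexamers was found in 38.6% of 32851 promoter windows of 250 bases, so their presence is common. A direct repeat of these hexamers with a gap of 3 bases, the spacing preferred by the vitamin D receptor, was found in 13 of the 32851 windows and in 0 of those of the 8 members that the table covers. *Calb1* is the member without a promoter window. These matches describe letters in a short window, and no binding was measured.

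Levels are in FPKM, that is, fragments per kilobase of exon, adjusted for how many reads were mapped in that mouse. They are per length and can therefore be set beside each other between genes. Differences between groups are given on the log2(FPKM + 1) scale, rFGF4 minus vehicle, which understates changes of genes at low levels. Read counts were not analysed here, and how many fragments stand behind a value is unknown. Relative depth, estimated from the commonest FPKM ratio among weakly expressed genes and set to 1 in vehicle mouse 2, ranged from 0.905 to 1.12 over all libraries. The kidney identity of the libraries was plain, with *Umod* (uromodulin of the thick ascending limb) at 654 to 1213 FPKM. A pair of libraries stood apart in ways that touch the results. In rFGF4 mouse 1, 7 of 8 distal convoluted tubule markers and 9 of 9 proximal tubule markers were at their lowest of all mice. The parvalbumin gene *Pvalb* of the distal convoluted tubule was at 4.01 FPKM against 35.8 to 105 in the other 7 mice, while the eighth marker, the magnesium channel gene *Trpm6*, was at its highest there (5.25 against 1.66 to 3.76). Both are named after their values were seen. In vehicle mouse 5, 6 of 6 tested lymphoid markers were at their highest, led by *Igkc*, an immunoglobulin light chain, at 22335 FPKM. In whole-tissue RNA, fewer cells of a type and less RNA per cell cannot be told apart.

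By mean level over the 8 mice, *S100g* came first with 875 FPKM, followed by *Pth1r* with 107, *Calb1* with 93.8, *Trpv5* with 7.43, *Slc8a1* with 4.72, *Casr* with 3.27, *Atp2b1* with 2.87, *Trpv6* with 1.77 and *Atp2b4* with 0.662. The steps from *S100g* to *Pth1r*, from *Calb1* to *Trpv5* and from *Atp2b1* to *Trpv6* held in 8 of 8 mice. The step from *Slc8a1* to *Casr* and that from *Trpv6* to *Atp2b4* held in 7 of 8. *Pth1r* and *Calb1*, *Trpv5* and *Slc8a1*, and *Casr* and *Atp2b1* changed places between mice, since the first of each pair was higher in 5 of 8. The cytosolic carriers were thus present at far higher RNA levels than the channels, the exchanger or the pumps of the same pathway.

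**Figure D1:**
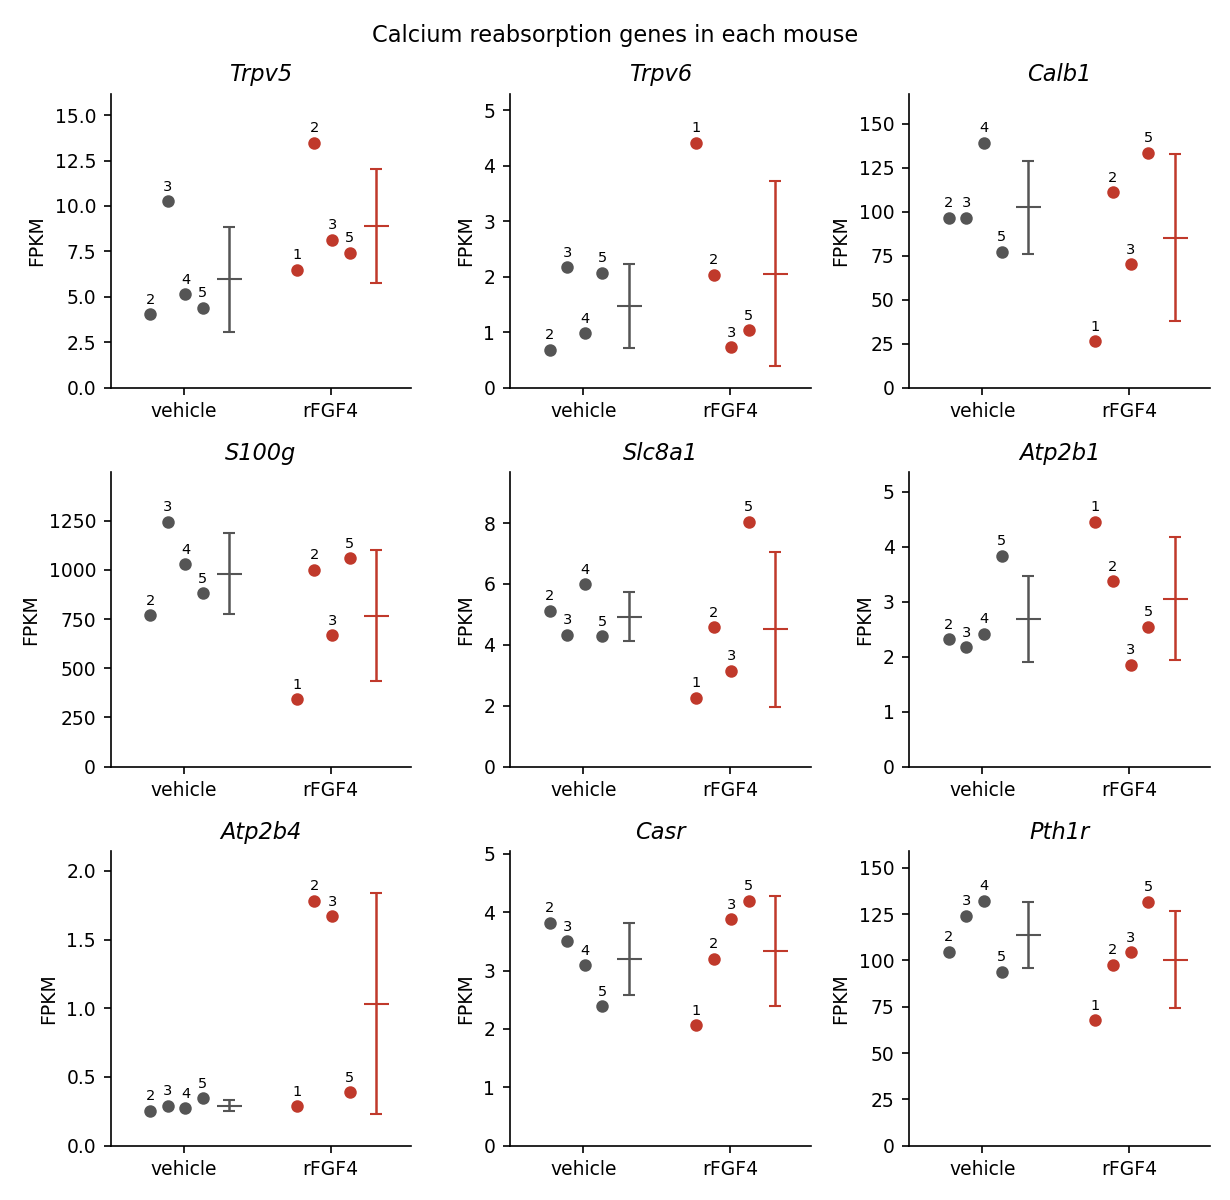
FPKM (vertical axes, from 0) of the 9 genes in the vehicle (grey) and rFGF4 (red) groups. Each point is 1 mouse with its number, and the line with bars is the mean ± SD of 4 mice. The groups overlap in every panel, and rFGF4 mouse 1 is the lowest of the 8 mice for *Calb1*, *S100g*, *Slc8a1*, *Casr* and *Pth1r*.

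The comparison of rFGF4 with vehicle asks whether the treatment altered kidney RNA. Of the 9 genes, 8 passed the filter of at least 0.5 FPKM in 4 or more libraries, and *Atp2b4* did not. Among the 8 tested members, 4 had a higher and 4 a lower point estimate under rFGF4, with a median difference of -0.09 against 0.09 over all 15150 tested genes. Without rFGF4 mouse 1 these medians were -0.0091 and 0.01, and with all libraries brought to the same median ratio -0.18 and -0.01. The study's threshold, an unadjusted p under 0.05 together with a change to 1.5 times or more or to 0.67 times or less, was passed by 0 of the 8 in limma's moderated test. Of all tested genes, 1.53% passed it, 1.09% as higher and 0.442% as lower. An unadjusted p under 0.05 was found for 0 of the 8, where 4.62% of all tested genes had one. The smallest Benjamini-Hochberg adjusted p of a member was 0.918 in limma, which was also the smallest over all tested genes. An adjusted p under 0.05 was thus found for 0 of the 15150. In none of the 9 genes did the groups fail to overlap, which occurred in 3.33% of tested genes. *Trpv5* was the only member to pass the threshold under any of the alternatives run, as given with its values. *Atp2b4* entered limma only in the alternatives without the filter and without mitochondrial transcripts, so the others could not have shown it passing.

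Of the apical channels, *Trpv5* (ENSMUSG00000036899; GRCm38 chromosome 6, 41652173 to 41680769) encodes the channel regarded as the main entry for calcium in the distal nephron. Its FPKM was 6.49, 13.5, 8.14 and 7.44 in rFGF4 mice 1, 2, 3 and 5, and 4.04, 10.3, 5.14 and 4.40 in vehicle mice 2, 3, 4 and 5. Each rFGF4-treated mouse was above 3 of the 4 vehicle-treated mice, while vehicle mouse 3 lay above 3 of the 4 rFGF4-treated mice. The means were 8.89 ± 3.14 (SD, n = 4) and 5.96 ± 2.90 (SD, n = 4), a difference of 0.54 (standard error 0.30, 95% confidence interval -0.15 to 1.23). The difference was not larger than the spread between the mice (exact permutation test, two-sided, p = 0.171, where the smallest possible is 0.0286). *Trpv5* passed the study's threshold without vehicle mouse 3 (difference 0.80) and with array weights, which give less weight to variable libraries (0.78). It did so as well with the mean of the distal convoluted tubule markers as a covariate (0.75), and in the other 7 fits that left out 1 mouse it did not. Without vehicle mouse 3, 228 of 14782 tested genes passed this unadjusted threshold. With array weights 496 of 15150 passed it and with the covariate 209 of 15150, against 232 of 15150 in the main fit.

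*Trpv6* (ENSMUSG00000029868; chromosome 6, 41620624 to 41636405) encodes the closely related channel that is best known from the intestine. It had 4.42, 2.04, 0.727 and 1.04 FPKM in rFGF4 mice 1, 2, 3 and 5, and 0.682, 2.17, 0.979 and 2.07 in vehicle mice 2, 3, 4 and 5. Apart from rFGF4 mouse 1, the 2 groups covered the same range. The difference was 0.21 (standard error 0.38, 95% confidence interval -0.66 to 1.08, two-sided exact permutation p = 0.657), and it was -0.11 without rFGF4 mouse 1. The ratio of *Trpv5* to *Trpv6* FPKM within a library was 1.47 in rFGF4 mouse 1 and 6.62, 11.2 and 7.16 in rFGF4 mice 2, 3 and 5. In vehicle mice 2, 3, 4 and 5 it was 5.93, 4.73, 5.25 and 2.12. The 2 lowest ratios were thus those of rFGF4 mouse 1 and vehicle mouse 5, the libraries that stood apart in their marker genes. The part of those markers in the ratio was not tested.

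Of the cytosolic carriers, *Calb1* (ENSMUSG00000028222; chromosome 4, 15881264 to 15908064) had 26.4, 111, 70.1 and 133.6 FPKM in rFGF4 mice 1, 2, 3 and 5, and 96.5, 96.5, 139 and 77.3 in vehicle mice 2, 3, 4 and 5. rFGF4 mice 1 and 3 lay below all vehicle-treated mice, whereas rFGF4 mouse 5 was among the highest. The means were 85.3 ± 47.3 (SD, n = 4) and 102 ± 26.2 (SD, n = 4), a difference of -0.46 (standard error 0.47, 95% confidence interval -1.54 to 0.62, two-sided exact permutation p = 0.600). Without rFGF4 mouse 1 it was 0.02.

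*S100g* (ENSMUSG00000040808; chromosome X, 162961992 to 162964599) reached 342, 1001, 669.5 and 1059.6 FPKM in rFGF4 mice 1, 2, 3 and 5, and 769, 1246, 1031 and 881 in vehicle mice 2, 3, 4 and 5. The same rFGF4 mice as for *Calb1* were the lowest, and no rFGF4-treated mouse was above all vehicle-treated mice. The means were 768 ± 332 (SD, n = 4) and 982 ± 207 (SD, n = 4), a difference of -0.46 (standard error 0.37, 95% confidence interval -1.31 to 0.39, two-sided exact permutation p = 0.343) that was -0.11 without rFGF4 mouse 1. The ratio of *S100g* to *Calb1* FPKM lay between 7.93 and 13.0 under rFGF4 and between 7.402 and 12.9 under vehicle, so the carriers kept a similar proportion in both groups, with rFGF4 mouse 1 and vehicle mouse 3 at the upper end.

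Of the genes for calcium extrusion, *Slc8a1* (ENSMUSG00000054640; chromosome 17, 81373105 to 81738377), whose exons share bases with 2 genes annotated on the other strand, had 2.27, 4.59, 3.15 and 8.05 FPKM in rFGF4 mice 1, 2, 3 and 5. In vehicle mice 2, 3, 4 and 5 it had 5.13, 4.34, 5.98 and 4.28. The vehicle values were close together, and the rFGF4 values spread on either side of them. The difference was -0.20 (standard error 0.30, 95% confidence interval -0.88 to 0.48, two-sided exact permutation p = 0.600). It was 0.0124 without rFGF4 mouse 1 and -0.48 without rFGF4 mouse 5.

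*Atp2b1* (ENSMUSG00000019943; chromosome 10, 98914406 to 99026143), the widely expressed calcium pump PMCA1, had 4.46, 3.37, 1.86 and 2.54 FPKM in rFGF4 mice 1, 2, 3 and 5, and 2.31, 2.17, 2.42 and 3.84 in vehicle mice 2, 3, 4 and 5. The highest value of each group was in the library that stood apart, rFGF4 mouse 1 and vehicle mouse 5. The difference was 0.12 (standard error 0.23, 95% confidence interval -0.41 to 0.65, two-sided exact permutation p = 0.657). It was -0.04 without rFGF4 mouse 1 and 0.27 without rFGF4 mouse 3.

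*Atp2b4* (ENSMUSG00000026463; chromosome 1, 133699457 to 133801041), which encodes the pump PMCA4, was low in 6 mice and several times higher in 2. Its FPKM was 1.78 and 1.67 in rFGF4 mice 2 and 3, against 0.287 and 0.388 in rFGF4 mice 1 and 5 and 0.254, 0.291, 0.273 and 0.346 in vehicle mice 2, 3, 4 and 5. rFGF4 mouse 1 lay within the vehicle range, so the groups overlapped. The means were 1.03 ± 0.804 (SD, n = 4) and 0.291 ± 0.0396 (SD, n = 4), a difference of 0.56 (exact permutation test, two-sided, p = 0.0857), which was 1.19 with a pseudocount of 0.1 in place of 1. With only 2 libraries at 0.5 FPKM or more, *Atp2b4* was outside the filter.

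The receptors showed the smallest spread between mice. *Casr* (ENSMUSG00000051980; chromosome 16, 36493696 to 36562141), which is most abundant in the thick ascending limb, had 2.07, 3.21, 3.88 and 4.20 FPKM in rFGF4 mice 1, 2, 3 and 5, and 3.82, 3.498, 3.09 and 2.39 in vehicle mice 2, 3, 4 and 5. The lowest value of each group was again in the library that stood apart. The difference was 0.03 (standard error 0.20, 95% confidence interval -0.42 to 0.48, two-sided exact permutation p = 0.8286), and its sign turned with all libraries brought to the same median ratio (-0.06) and in 3 of the 8 fits with 1 mouse left out.

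*Pth1r* (ENSMUSG00000032492; chromosome 9, 110722085 to 110747145), the parathyroid hormone receptor of proximal and distal tubule cells, shares exon bases with *Myl3* on the other strand. It had 67.8, 97.6, 104 and 132 FPKM in rFGF4 mice 1, 2, 3 and 5, and 105, 124, 132 and 93.9 in vehicle mice 2, 3, 4 and 5. Only rFGF4 mouse 1 lay below the vehicle range. The difference was -0.20 (standard error 0.21, 95% confidence interval -0.69 to 0.29, two-sided exact permutation p = 0.457), and it was -0.03 without that mouse.

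**Figure D2:**
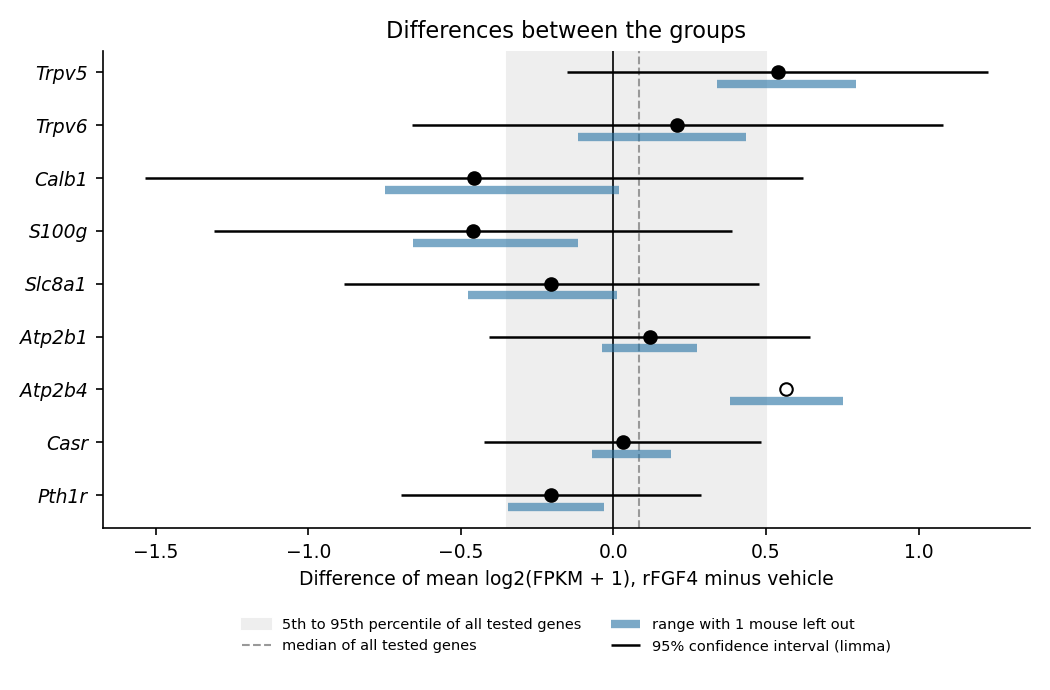
Difference of mean log2(FPKM + 1), rFGF4 minus vehicle (horizontal axis), for each gene. Filled points are tested genes with the 95% confidence interval of limma (black line), the open point is *Atp2b4*, which was not tested, blue bars span the differences with 1 mouse left out, and the grey band spans the 5th to 95th percentile of all tested genes (-0.35 to 0.50) around their median of 0.09 (dashed). All 8 intervals include 0, while the blue bars of *Trpv5*, *S100g*, *Atp2b4* and *Pth1r* stay on 1 side of it.

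Mouse by mouse, the 9 genes did not move as a block. rFGF4 mouse 1 held the lowest value of 5 genes and the highest of *Trpv6* and *Atp2b1*. Relative to the vehicle mean on the log2 scale, it was at -1.89 for *Calb1*, -1.497 for *S100g*, -0.85 for *Slc8a1* and -0.73 for *Pth1r*, beside 0.18 for *Trpv5* and 1.18 for *Trpv6*. The mean of the 8 distal convoluted tubule markers in that mouse was at -1.36 and that of the 9 proximal tubule markers at -1.37, whereas connecting tubule and collecting duct markers were at -0.29 and thick ascending limb markers at -0.49. In the other 3 rFGF4-treated mice the distal convoluted tubule mean lay between -0.35 and 0.07, *Calb1* between -0.51 and 0.41, and *S100g* between -0.53 and 0.13. With this marker mean as a covariate, the difference was 0.19 for *Calb1*, 0.01 for *S100g* and 0.12 for *Slc8a1*, each with the opposite sign of the fit without it.

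**Figure D3:**
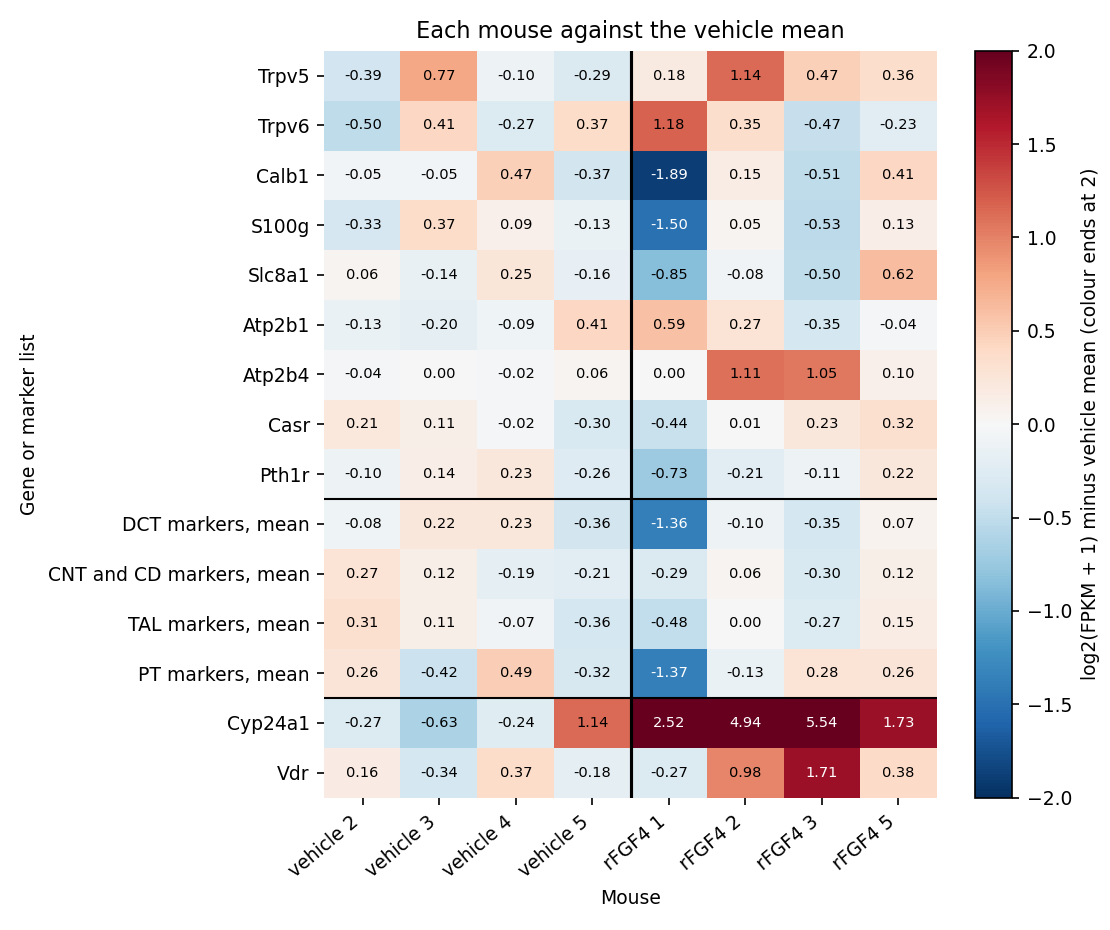
Log2(FPKM + 1) of each mouse minus the mean of the vehicle-treated mice, for the 9 genes (top), the means of nephron marker lists (middle: DCT, distal convoluted tubule; CNT and CD, connecting tubule and collecting duct; TAL, thick ascending limb; PT, proximal tubule) and 2 vitamin D genes (bottom). Columns are mice, with vehicle on the left. The numbers are the values, and the colours end at 2 on either side. The *Calb1* and *S100g* values of rFGF4 mouse 1 (-1.89 and -1.497) stand with low DCT and PT markers, and the *Atp2b4* values of rFGF4 mice 2 and 3 (1.11 and 1.048) with the highest *Cyp24a1* and *Vdr*.

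The distance of a gene to the marker mean of the same library differed in pattern between *Trpv5* and the carriers. *Trpv5* minus the distal convoluted tubule mean was -0.59, -0.89, -1.31 and -1.85 on the log2 scale in rFGF4 mice 1, 2, 3 and 5, and -2.43, -1.58, -2.46 and -2.06 in vehicle mice 2, 3, 4 and 5. By this measure vehicle mouse 3 was the only vehicle-treated mouse within the rFGF4 range. The marker mean was itself lowest in rFGF4 mouse 1 (3.49 against 4.49 to 5.08 in the other 7 mice), so a gene that did not follow it was placed higher in that mouse by the subtraction. The same near-separation was found for *Casr*, whose difference without the subtraction was 0.03. There vehicle mouse 2 lay inside the rFGF4 range, at -2.50 against -2.68 to -1.87 under rFGF4 and -3.05 to -2.73 in the other 3 vehicle-treated mice. *Calb1* was 1.28 to 2.15 above the marker mean in rFGF4-treated and 1.54 to 2.05 above it in vehicle-treated mice, and *S100g* 4.88 to 5.22 and 4.82 to 5.30 above it, without a separation of the groups.

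**Figure D4:**
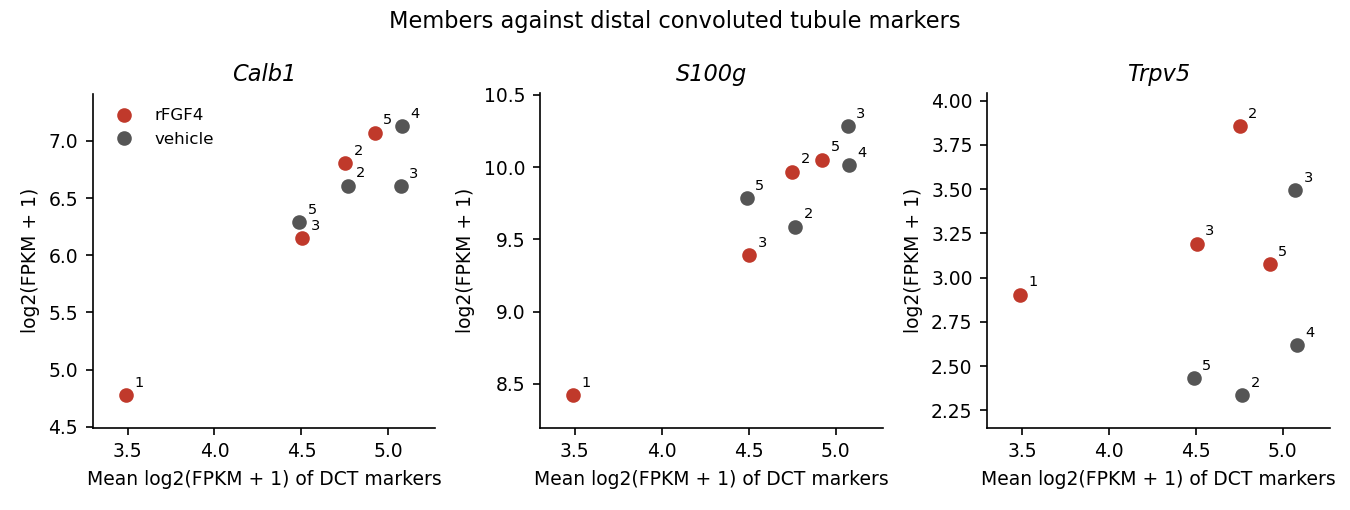
Log2(FPKM + 1) of *Calb1*, *S100g* and *Trpv5* (vertical axes) against the mean log2(FPKM + 1) of 8 distal convoluted tubule (DCT) markers in the same library (horizontal axes). Each point is 1 mouse with its number, in red for rFGF4 and grey for vehicle. *Calb1* and *S100g* are lowest where the marker mean is lowest (rFGF4 mouse 1, marker mean 3.49), while *Trpv5* of that mouse lies above 3 of the 4 vehicle-treated mice.

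By the root mean square difference of their log2 profiles over the 8 mice, the genes most like *Calb1* among 13198 candidates with a mean of at least 1 FPKM were *Abca13* (0.149), *Aldh1a7* (0.216), *Lrrc52* (0.230), *Wfdc15b* (0.262) and *Gm15848* (0.269). For *S100g* they were *Gcgr* (0.177), *Cwh43*, *Mapk1ip1*, *Ybx2* and *Pde4c* (0.228). For *Trpv5* they included *Zfp691* (0.215), *Dmxl2*, *Ptges* and *Smim15* (0.248). The 3 lists share no gene, and none of the 8 calcium genes with a mean of at least 1 FPKM was in them.

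Among regulators of the apical channels, 0 of 12 tested genes passed the study's threshold, 8 were higher and 4 lower by point estimate, and the median difference was 0.13. Of all 15150 tested genes, 10164 were higher, with a median of 0.09, so the split is near that background. *Klk1*, a tubular kallikrein known to hold TRPV5 at the cell surface, had 804 FPKM in rFGF4 mouse 1, 1350 to 1405 in the other 3 mice of that group and 1173 to 2490 under vehicle (difference -0.36, standard error 0.30). *S100a10*, which with annexin A2 brings TRPV5 and TRPV6 to the membrane, had 76.3 to 244 FPKM and 70.1 to 133 (0.66, standard error 0.37). Both groups overlapped for each gene, with two-sided exact permutation p of 0.343 for *Klk1* and 0.143 for *S100a10*.

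Of other calcium pumps, exchangers and buffers, 4 of 9 genes were tested and 0 passed the study's threshold. All 4 were higher by point estimate (median 0.24) and at their highest in rFGF4 mouse 1, and the median was 0.10 without that mouse and 0.11 with all libraries brought to the same median ratio. The untested *Atp2b2*, *Atp2b3*, *Slc8a2*, *Slc8a3* and *Calb2* were below the filter, so *Atp2b1* and *Slc8a1* were the pump and the plasma membrane exchanger with the highest levels of their families here. *Calm2* and *Calm3*, which encode calmodulin, had differences of 0.25 (standard error 0.24) and 0.22 (standard error 0.15). Of the claudins of the paracellular route, 5 of 6 were tested and 0 passed. *Cldn10*, a claudin of the thick ascending limb and other segments, had 29.4 to 43.2 FPKM under rFGF4 and 36.7 to 58.9 under vehicle. *Cldn2*, the proximal claudin that lets calcium through, was listed at 96.0 to 227 FPKM in 5 mice and at 0.00371 to 0.0453 in rFGF4 mouse 2 and vehicle mice 2 and 4, so no difference is drawn from it.

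The hormone axis held the 1 gene of these pathway lists that passed the study's threshold, as 1 of 9 tested genes higher and 0 lower. *Cyp24a1*, the enzyme that degrades vitamin D and a classic target of the vitamin D receptor and of FGF23 signalling, had 41.8, 227, 345 and 23.7 FPKM in rFGF4 mice 1, 2, 3 and 5, and 5.18, 3.82, 5.29 and 15.4 in vehicle mice 2, 3, 4 and 5. All 4 rFGF4-treated mice lay above the vehicle-treated mice (difference 3.68, standard error 0.85, limma adjusted p = 0.918, two-sided exact permutation p = 0.0286), and its exons share bases with *Pfdn4*. *Rxra*, the partner of the vitamin D receptor in binding DNA, was at 16.1 to 25.1 FPKM against 13.7 to 15.0 without overlap (difference 0.43, standard error 0.16, two-sided exact permutation p = 0.0286), below the fold change of the threshold. *Gnas*, which couples the parathyroid hormone receptor to cyclic AMP, had a difference of -0.08 (standard error 0.12).

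rFGF4 mice 2 and 3, the mice with high *Atp2b4*, were also those with the highest *Cyp24a1*. In the same mice *Vdr*, the vitamin D receptor, was at 54.8 and 91.6 FPKM against 21.3 to 35.97 in the other 6, and *Cyp27b1*, which makes hormonal vitamin D, at 2.12 and 1.72 FPKM against 8.70 to 21.5. *Vdr* and *Cyp27b1* are set beside *Atp2b4* after their values were seen, and neither passed the study's threshold between the groups. Of the members known to respond to vitamin D, *Trpv5* was also highest in rFGF4 mice 2 and 3 among the treated mice (1.14 and 0.47 relative to the vehicle mean on the log2 scale, against 0.18 and 0.36 in mice 1 and 5). Vehicle mouse 3, with the lowest *Cyp24a1* and *Vdr* of all mice, was at 0.77. On the same scale, *Trpv6*, *Calb1* and *S100g* were at 0.35, 0.15 and 0.05 in rFGF4 mouse 2 and at -0.47, -0.51 and -0.53 in rFGF4 mouse 3, so these mice differed from each other. The part of vitamin D in the values of these genes was not tested.

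Nephron segment markers gave the frame for these levels. All 8 distal convoluted tubule markers were lower in rFGF4-treated mice by point estimate, where 32.9% of all tested genes were lower, with a median of -0.32 and 0 past the study's threshold. That background share depended on scaling and on rFGF4 mouse 1, since 7918 of 15123 genes were lower with all libraries brought to the same median ratio and 6893 of 14652 without that mouse. Their summed level was 230.0 to 661 FPKM under rFGF4 and 431 to 676 under vehicle, and without rFGF4 mouse 1 the median was -0.21 and 5 of 8 were lower. *Slc12a3*, the thiazide-sensitive sodium-chloride cotransporter, had 20.5, 90.8, 95.8 and 88.2 FPKM in rFGF4 mice 1, 2, 3 and 5 and 55.7 to 133 under vehicle. *Fxyd2*, a subunit of the sodium pump, had 172 to 414 and 257 to 391 FPKM. Of the connecting tubule and collecting duct markers, 7 of 8 were lower by point estimate, or 4 of 8 without rFGF4 mouse 1, and 0 passed the threshold. *Tfcp2l1*, a transcription factor of these cells, was higher without overlap (36.6 to 47.3 against 24.4 to 35.0 FPKM, two-sided exact permutation p = 0.0286) but below the fold change of the threshold, while *Aqp2* and *Hsd11b2* had differences of -0.02 and -0.28.

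In the thick ascending limb, 6 of 7 markers were lower by point estimate, with *Umod* as the exception (839 to 1213 against 654 to 1033 FPKM, two-sided exact permutation p = 0.0857) and *Slc12a1* at -0.44. In the proximal tubule, 8 of 9 were lower by point estimate, with *Slc34a1* at -0.49 and *Aqp1* at -0.52, and the median of the list was -0.21, against 0.13 with 2 of 9 lower without rFGF4 mouse 1. Markers of other tissue were also uneven. Summed lymphoid markers ran from 75.7 to 2662 FPKM under rFGF4 and from 26.1 to 22452 under vehicle, with *Ccl21a* at 20.5 in vehicle mouse 5 and at most 6.12 elsewhere. Vascular and smooth muscle markers summed to 51.5 to 81.6 and 48.0 to 139, with *Acta2* and *Tagln* highest in vehicle mouse 5 (53.7 and 42.9). Red blood cell markers summed to 120 to 2657 and 1139 to 4325, with all 5 genes lowest in rFGF4 mouse 1, where *Hba-a2* was at 35.3 and *Hbb-bs* at 38.0. All 5 were lower under rFGF4 by point estimate, with a median of -1.97 and 0 past the study's threshold. Without rFGF4 mouse 1 all 5 were still lower, with a median of -1.13. The part of cell composition in the values of the 9 calcium genes was not tested beyond the covariate given above. With rFGF4 mouse 1 and vehicle mouse 5 both left out, a choice made after seeing the data, 0 of the 8 tested members passed the threshold, and the differences were 0.56 for *Trpv5*, -0.10 for *Calb1* and -0.16 for *S100g*.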

How the data were processed

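Kidney RNA-seq of 4 rFGF4-treated and 4 vehicle-treated diabetic mice was analysed, grouped by the treatment and genotype labels. The authors assembled mapped reads with StringTie, merged transcripts with gffcompare and deposited FPKM per gene. The submitters' processing notes list HISAT2 2.0, StringTie 1.3.0, Bowtie 0.12.2 and the build name mm8, without roles. Identifiers matched GENCODE M21 (GRCm38) for 99.53% of 55401 genes, and positions come from there. A value of 0.0001 stands in place of 0. The columns of the authors' own comparison (fold change, its log2, p and q) were not used. Counts were not analysed here, so the authors' edgeR test was replaced by limma, and depth is unknown.

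Genes with at least 0.5 FPKM in 4 or more libraries (15150) were compared as log2(FPKM + 1) by limma (version 3.58.1, R 4.3.3), letting the prior variance follow the mean level, and p-values were adjusted by Benjamini-Hochberg over all of these genes. Single genes were also compared by exact permutation of the 70 arrangements of mice. The procedure was tested on simulated data, in which unchanged genes also passed the study's unadjusted threshold. The members, the pathway and marker lists and the tests were chosen with earlier results of these data known. Named were all members, list genes with an unadjusted p under 0.05, the 2 highest of each list, and the 5 genes with the profile most like *Trpv5*, *Calb1* and *S100g*, of which 1 is not reported here. Alternatives were another pseudocount, no filter, array weights, libraries scaled to one median ratio, a larger fold change, a marker covariate, removal of mitochondrial transcripts, each mouse left out, a block for the mouse number and, added later, 2 mice left out together. The labels do not say that each library is a separate animal, so p-values measure the spread between these samples, which may be technical. Figures were drawn with matplotlib 3.10.9.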

Additional observations from a re-analysis of the deposited data

Results flagged for a closer look

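In 68 groups of 4 mice (34 genes or means in each treatment group), 3 held an extreme mouse by Dixon's test, which compares its distance from the next mouse with the range of the group at the 95% level, where chance gives about 3.4. None was a calcium reabsorption gene. On the log2(FPKM + 1) scale, the gap took 0.929 of the range for *Klk1* in rFGF4 mouse 1 (804 FPKM against 1350 to 1405 in the other 3) and 0.946 for *Slc12a3* in the same mouse (20.5 against 88.2 to 95.8), the mouse that was also lowest for 5 of the 9 members. For *Cldn2* in rFGF4 mouse 2, listed at 0.00371 FPKM against 138 to 227, it took 0.909.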

How the results depend on the processing

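Of the 8 tested members, 0 passed the study's threshold with another pseudocount, without the filter, after scaling to a common median ratio, at a fold change of 2 or with the replicate block, and 1, *Trpv5*, passed it with array weights. With each mouse left out the number was 0 to 1, with *Trpv5* passing without vehicle mouse 3. The 232 tested genes at the threshold became 496 with array weights and 182 to 569 with each mouse left out, highest without rFGF4 mouse 5, and the larger fold was passed by 54. They were 348 with a pseudocount of 0.1. Scaling to a common median ratio changed the split from 165 higher and 67 lower to 93 higher and 84 lower, and the median of the list of channel regulators from 0.13 to 0.0069. With each mouse left out, *Trpv5* ranged from 0.34 to 0.80, *Trpv6* from -0.11 to 0.44, *Calb1* from -0.75 to 0.0181, *S100g* from -0.66 to -0.11, *Slc8a1* from -0.48 to 0.0124, *Atp2b1* from -0.0376 to 0.27, *Atp2b4* from 0.38 to 0.75, *Casr* from -0.0686 to 0.19 and *Pth1r* from -0.35 to -0.03. Mitochondrially encoded transcripts made up 19.0% to 38.4% of summed FPKM, and without them, with each library rescaled to a fixed sum, 551 of 18178 tested genes passed (456 higher and 95 lower) and 0 of 9 members did. *Atp2b4*, which then passed the filter, was at 0.97 against 0.56 (limma unadjusted p = 0.0501, close to the threshold), and *Trpv5* at 0.69. *Casr* was -0.0594 after scaling to a common median ratio. With the distal convoluted tubule covariate, *Trpv6* was -0.14, *Calb1* 0.19, *S100g* 0.0125, *Slc8a1* 0.12, *Atp2b1* -0.089 and *Pth1r* 0.0587. Whether the shared mouse numbers 2, 3 and 5 pair the samples is not known. Deviations of same-numbered mice correlated at -0.23, -0.16 and -0.39 across genes, and those of differently numbered mice at -0.562 to 0.567. With such a spread these correlations cannot decide the question, and the replicate block rests on the number alone. With it 263 genes passed, and *Trpv6* was -0.20, *Calb1* 0.18, *Slc8a1* 0.0941, *Atp2b1* -0.0668 and *Pth1r* 0.0458. The cause of these changes was not tested. Without read counts, the counting error of genes near 1 FPKM, such as *Atp2b4* and *Trpv6*, is unknown, and 4 mice against 4 give exact p no lower than 0.0286.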
